A study of Mus musculus with 32 samples.

Results

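Oncostatin M, IL-6 and STAT3 signalling was described here through 10 genes, found by row name among the 33280 genes of each count table. The ligands were Osm, Il6, Lif and Il11, the receptors were Osmr, Il6ra, Il6st and Lifr, and the signalling genes were Stat3 and Socs3. The pathway was chosen from these same libraries with the rise of Osmr in stroke tissue already known, so the ipsilateral and contralateral levels of Osmr in tissue are given as a description, without a test. The other 9 genes were listed with results of these data in view, and the calls made for them in tissue describe the fit across all genes and support nothing further.

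These cytokines share one signal transducer, the gp130 receptor encoded by Il6st. IL-6 and IL-11 first bind a chain of their own, LIF signals through the LIF receptor paired with gp130, and oncostatin M in mice signals mainly through the oncostatin M receptor paired with gp130. Janus kinases bound to these receptors then phosphorylate the transcription factor STAT3, which induces, among many genes, Socs3, the feedback inhibitor that binds gp130 and shuts the signal down. In the injured brain the family is best known for the reactive state of astrocytes and for endothelial activation.

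All mice were wild-type C57BL/6JCrl animals, young adults of both sexes. Control (CTL) mice received the vehicle and repopulated mice received BLZ945, an inhibitor of the CSF1 receptor that depletes brain macrophages, at 200 mg/kg by gavage for 7 days. After 8 weeks, in which macrophages returned, every mouse underwent a thromboembolic occlusion of one middle cerebral artery by injected thrombin, and the ipsilateral (stroke) and contralateral hemispheres were taken 1 day later. There were 4 mice per treatment (CTL A2, A3, A4 and B1; BLZ945 C2, C3, C4 and D1), and all of them had a stroke, so the contralateral hemisphere is the reference here, and no unoperated brain was analysed. RNA was sequenced from 16 samples of whole tissue, cut as slices of either hemisphere, and from 16 sorts of CNS-associated macrophages (CAMs), gated as CD45+, CD11b+ and CD206+ cells that lacked Ly6C, Ly6G and CD11c, from brain labelled as free of choroid plexus.

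Levels are in CPM, a gene's count as a share of its library's total after TMM scaling, put on a common scale. Total counts on genes were 9288717 to 12781505 per tissue library and 7397393 to 11081409 per CAM library used. The ipsilateral CAM libraries of A3 and C2, labelled as degraded RNA, held 54055 and 55155 counts and were left out, which left 14. For the tissue of A3, the titles and library names of the samples give library 19 as the stroke hemisphere, whereas the column names of the table give it as the contralateral one. The sample labels were followed, and results in CTL tissue are also given without A3 and with its hemispheres exchanged. The CAM libraries held the 7 border macrophage markers (Mrc1, Cd163, Lyve1 and others) at a summed 1542 to 9175 CPM and the 6 microglia markers (P2ry12, Tmem119 and others) at 5519 to 24949 CPM, although the gate was set on CD206. Although choroid plexus was removed according to the labels, its 4 markers summed to 1403, 20026, 37203 and 5276 CPM in the contralateral CAM libraries of C2, C3, C4 and D1 and to 8950 CPM in that of A4, against 0.502 to 1498 CPM ipsilaterally. Tissue libraries also differed in these markers, from 2.93 CPM in C3 contralaterally to 4215 CPM in C2 ipsilaterally. In D1 the sum was 2821 CPM contralaterally and 42.4 CPM ipsilaterally.

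Promoter sequence is shown for Osmr and for the members called higher in stroke tissue of a treatment whose RefSeq promoter held the STAT motif TTCNNNGAA or the AP-1 motif, which were Socs3, Lif and Il11. Windows ran from 250 bases before to 50 bases after the start (RefSeq, GRCm38.p6), and 9 of the 10 members had one or more, 11 windows in all, with none listed for Osm. The STAT motif TTCNNNGAA, which is its own reverse complement, stood in 8.3% of all 32851 promoters of that length and in 1 of the 11 member windows, that of Socs3. The AP-1 motif TGANTCA, searched after the levels had been seen, was read on both strands. It stood in 7.81% of all promoters and in 4 of the 11 member windows, those of Il6, Lif, Il11 and Osmr, none of which held TTCNNNGAA. Il11 had a further window, at chr7:4782808-4783107, which held neither TGANTCA nor TTCNNNGAA. In the Osmr window the AP-1 motif lies after the start, and in those of Il6, Lif and Il11 before it. The CRE motif TGACGTCA stood in 1.79% of promoters and in 0 member windows, the C/EBP motif TTGCNNAA in 10.8% and in Il6 alone, TATAAA in 13.6% and in 0, the NF-kB motif in 50.8% and in 9 windows, and the wide STAT motif in 6.95% and in 1 window, of Il11. Each sequence below is the coding strand from 5′ to 3′, the first 280 bases of the window, with the motif in capitals. Socs3 is at chr11:117969337-117969616 on the minus strand (motif at bases 97 to 105), Osmr at chr15:6874284-6874563 on the minus strand (bases 254 to 260), Lif at chr11:4257318-4257597 on the plus strand (bases 23 to 29) and Il11 at chr7:4778112-4778391 on the minus strand (bases 153 to 159).
Socs3: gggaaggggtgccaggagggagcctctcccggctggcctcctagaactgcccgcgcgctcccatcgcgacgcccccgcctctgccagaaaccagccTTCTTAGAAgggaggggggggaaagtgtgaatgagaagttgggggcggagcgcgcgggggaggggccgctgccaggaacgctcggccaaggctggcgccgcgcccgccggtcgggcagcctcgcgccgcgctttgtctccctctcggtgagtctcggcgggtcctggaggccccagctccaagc
Osmr: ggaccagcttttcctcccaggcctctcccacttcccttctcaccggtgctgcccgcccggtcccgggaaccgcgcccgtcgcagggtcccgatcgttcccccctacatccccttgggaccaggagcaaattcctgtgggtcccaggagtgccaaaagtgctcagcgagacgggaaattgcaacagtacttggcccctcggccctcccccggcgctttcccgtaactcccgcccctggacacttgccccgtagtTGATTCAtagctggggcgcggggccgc
Lif: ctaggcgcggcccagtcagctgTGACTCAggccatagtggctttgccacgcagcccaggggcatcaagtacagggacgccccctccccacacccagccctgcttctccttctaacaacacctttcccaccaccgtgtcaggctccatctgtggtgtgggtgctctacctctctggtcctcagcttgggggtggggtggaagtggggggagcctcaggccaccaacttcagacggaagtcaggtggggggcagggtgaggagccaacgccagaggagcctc
Il11: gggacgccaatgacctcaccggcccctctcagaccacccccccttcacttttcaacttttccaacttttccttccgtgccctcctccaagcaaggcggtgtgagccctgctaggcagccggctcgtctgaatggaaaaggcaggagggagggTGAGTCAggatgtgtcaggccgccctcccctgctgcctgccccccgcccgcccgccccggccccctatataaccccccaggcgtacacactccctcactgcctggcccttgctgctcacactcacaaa

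The ligands were scarce in tissue of the contralateral hemisphere. Calls for the ligands are given first from the main fit, which is unpaired and ignores that both hemispheres come from the same animal. By that fit none of the 4 was called in CTL stroke tissue, and Lif and Il11 were called higher in BLZ945 stroke tissue. Once the pairing was modelled, as described below, Osm, Lif and Il11 passed in CTL and Il6 in BLZ945 animals. The CTL calls of the paired fit were lost when the hemispheres of A3 were exchanged. Osm, a cytokine made by neutrophils and macrophages, had 0 counts in every contralateral CTL library. In CTL stroke tissue it stood at 0.547 CPM in A2, 0 in A3, 0.442 in A4 and 1.89 in B1, or 35 reads in all, 23 of them from B1. The exact 95% lower bound of the ratio to the contralateral group was 8.43, and 2.65 without B1, which covers counting error only. In BLZ945 mice it was 0 to 0.209 CPM contralaterally and 0.756 in C2, 0.602 in C3, 0 in C4 and 2.2 in D1 ipsilaterally. B1 and D1 were thus highest, and A3 and C4 had no Osm read in the stroke hemisphere. Osm was not called in either treatment by the unpaired fit (log2 fold change 3.03 ± 1.27 SE in BLZ945, edgeR adjusted p = 0.39, and adjusted p = 0.38 in CTL).

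Il6 was as scarce. CTL stroke tissue held 0 in A2, 0.343 in A3, 0.265 in A4 and 1.4 CPM in B1, against 1 read in the 4 contralateral libraries. BLZ945 stroke tissue held 2.08 in C2, 0 in C3, 0 in C4 and 3.5 CPM in D1, again against 1 contralateral read. With 24 and 57 reads ipsilaterally, the ratios were 22.5 (95% exact interval 3.67 to 925) and 57.3 (9.89 to 2304), intervals that cover counting error only. Without B1 the CTL ratio was 6.67 (0.857 to 300), and without D1 the BLZ945 ratio was 21.7 (3.51 to 895). The stroke and contralateral groups overlapped in both treatments, and Il6 was not called by the unpaired fit (edgeR adjusted p = 0.73 and 0.15).

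Lif, which acts on glia and neurons through LIFR, was detected in every tissue library. In CTL mice the contralateral levels were 0.396, 1.1, 0.516 and 0.555 CPM in A2, A3, A4 and B1, and the stroke levels 4.06, 2.06, 0.973 and 3.38 CPM. The groups overlapped, through A3 contralaterally and A4 ipsilaterally. The log2 fold change of 2.01 ± 0.53 (SE) was not called by the unpaired fit (edgeR adjusted p = 0.18). In BLZ945 mice Lif went from 1.18, 0.209, 0.837 and 1.31 CPM in C2, C3, C4 and D1 to 8.12, 2.61, 4.41 and 7.79 CPM, without overlap, and was called higher (2.68 ± 0.51, edgeR adjusted p = 0.011). The call was lost without C2, C4 or D1 (adjusted p = 0.093, 0.055 and 0.064), with log2 fold changes of 2.62 to 2.77.

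Il11, best known from fibrosis and from tissue repair, spread widely in repopulated mice. In CTL mice every contralateral library lay between 0.462 and 0.595 CPM and the stroke libraries were at 1.95, 4.03, 1.59 and 4.28 CPM in A2, A3, A4 and B1. These groups did not overlap, yet Il11 was not called by the unpaired fit (log2 fold change 2.45 ± 0.75, edgeR adjusted p = 0.34). In BLZ945 mice contralateral levels were 0.107 to 0.843 CPM, and stroke levels were 15.4 in C2, 0.902 in C3, 2.1 in C4 and 10.1 in D1. C2 and D1 carried most of the Il11 reads, and the gene was called higher (3.91 ± 0.76, adjusted p = 0.012). Without C2 the log2 fold change was 2.91 (adjusted p = 0.15) and without D1 it was 4.17 (adjusted p = 0.065).

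**Figure D1:**
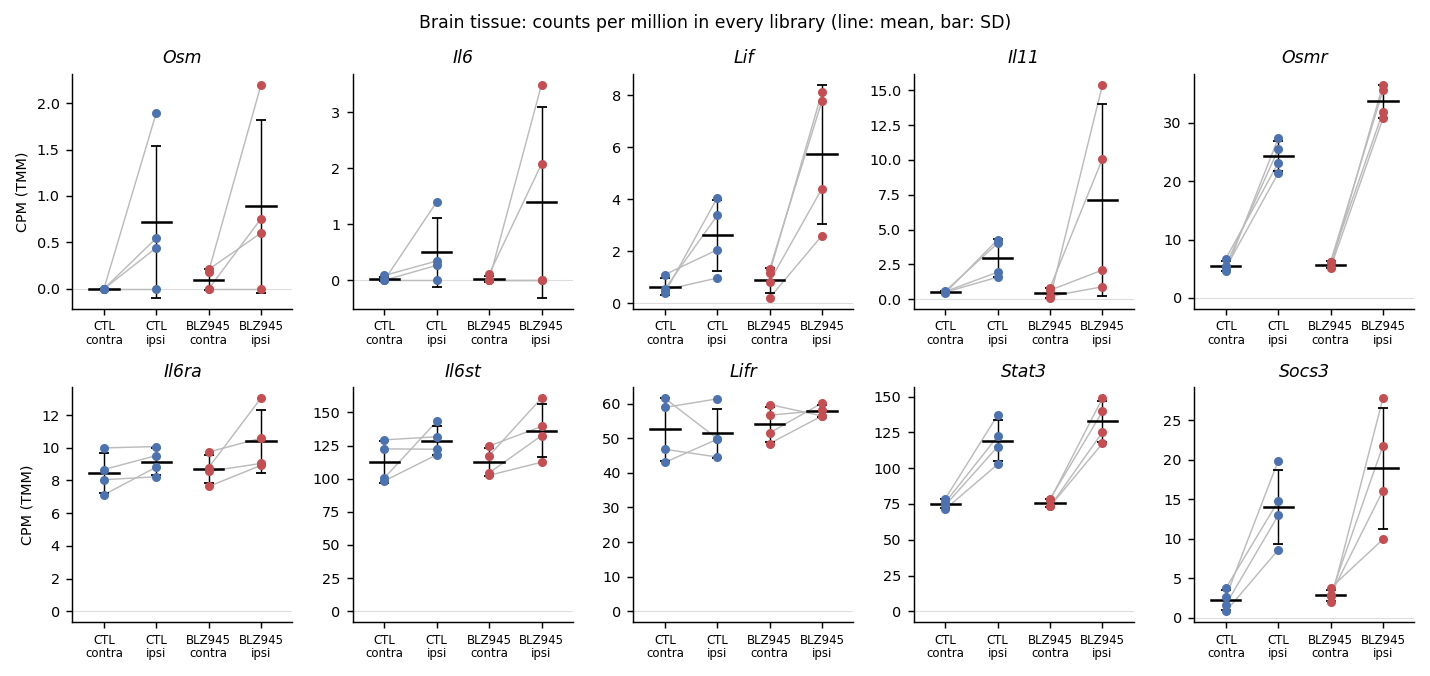
CPM (TMM-scaled, linear axes that begin near 0) of the 10 genes in each of the 16 tissue libraries, by treatment and hemisphere; points are libraries, grey lines join the hemispheres of a mouse, black lines are means and bars SDs. Osmr, Stat3, Socs3, Lif and Il11 were higher in the stroke hemisphere of all 8 mice. Il6ra, Il6st and Lifr were nearly level, although Il6ra was also higher in all 8, by a ratio of 1.01 to 1.48.

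Of the receptors, Osmr alone differed widely between the hemispheres. Osmr, the chain that makes gp130 responsive to oncostatin M, stood at 5.55, 6.71, 5.16 and 4.62 CPM contralaterally and at 25.5, 23.2, 21.4 and 27.4 CPM ipsilaterally in CTL mice A2, A3, A4 and B1. In BLZ945 mice C2, C3, C4 and D1 it stood at 6.21, 6.17, 5.21 and 5.24 CPM contralaterally and at 31.9, 35.6, 30.8 and 36.6 CPM ipsilaterally. The lowest stroke hemisphere was thus more than 3 times the highest contralateral one, and the ratio within a mouse ran from 3.45 in A3 to 6.97 in D1. Group means rose from 5.51 ± 0.887 to 24.3 ± 2.61 CPM in CTL and from 5.71 ± 0.557 to 33.7 ± 2.79 CPM in BLZ945 mice (SD, n = 4 each).

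The other receptors showed no such step. Il6st, the shared transducer, was 98.3 to 129 CPM contralaterally and 118 to 143 CPM ipsilaterally in CTL mice, and 103 to 125 and 112 to 161 CPM in BLZ945 mice. Lifr was 43 to 61.5 and 44.6 to 61.4 CPM in CTL mice, and 48.5 to 59.7 and 56.4 to 60.2 CPM in BLZ945 mice. Il6ra, the IL-6 binding chain, was 7.12 to 9.99 and 8.22 to 10.1 CPM in CTL mice, and 7.63 to 9.74 and 8.92 to 13 CPM in BLZ945 mice. All 3 overlapped between hemispheres and none was called. Their log2 fold changes were 0.19 ± 0.11, -0.03 ± 0.12 and 0.11 ± 0.15 in CTL mice and 0.28 ± 0.11, 0.09 ± 0.12 and 0.26 ± 0.15 in BLZ945 mice (SE). The highest bound at 2 SE was 0.56 on the log2 scale, for Il6ra in BLZ945 mice.

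Stat3 and Socs3 rose in the stroke hemisphere of both treatments. Stat3 went from 76.1, 74.1, 71.4 and 78.7 CPM to 122, 115, 103 and 137 CPM in CTL mice A2, A3, A4 and B1 (log2 fold change 0.67 ± 0.09 SE, edgeR adjusted p = 0.0012). In BLZ945 mice C2, C3, C4 and D1 it went from 77.8, 73.4, 78.5 and 73.3 to 149, 117, 140 and 125 CPM (0.81 ± 0.09, adjusted p = 8.3e-05). Every stroke hemisphere was above every contralateral one, with a ratio within a mouse of 1.44 to 1.91. Socs3 went from 1.66, 3.74, 0.825 and 2.59 to 13, 14.7, 8.58 and 19.9 CPM in CTL mice (2.65 ± 0.38, adjusted p = 0.0022) and from 2.04, 3.76, 2.88 and 2.81 to 27.8, 9.93, 16.1 and 21.8 CPM in BLZ945 mice (2.71 ± 0.38, adjusted p = 0.00094). It too was without overlap, and its ratio within a mouse ran from 2.64 in C3 to 13.6 in C2. Whole tissue cannot tell more transcript per cell from more cells that carry the transcript.

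Per kilobase of exon, gp130 was the most abundant receptor of tissue. In CTL stroke tissue Il6st stood at 11.6 ± 1.01 CPM per kb, Lifr at 4.77 ± 0.659, Osmr at 2.01 ± 0.215 and Il6ra at 1.06 ± 0.0934 (SD, n = 4). In contralateral CTL tissue the order of the last 2 was the reverse, with Osmr at 0.455 ± 0.0732 and Il6ra at 0.978 ± 0.139 CPM per kb. Among ligands in CTL stroke tissue, Il11 (1.42 ± 0.667) and Lif (0.602 ± 0.316) stood above Osm (0.317 ± 0.36) and Il6 (0.207 ± 0.254), but neighbours in that order lay within their spread. Stat3 (12.5 ± 1.51) was close to Il6st, and Socs3 was at 4.86 ± 1.61 CPM per kb.

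Of the 9 members other than Osmr, 2 were called higher in CTL stroke tissue (Stat3 and Socs3) and 4 in BLZ945 stroke tissue (also Lif and Il11), with none lower. Among all 18968 genes tested, 0.443% passed in CTL and 1.16% in BLZ945 mice, at an edgeR adjusted p under 0.05 and an absolute log2 fold change above 0.59. Members whose stroke libraries lay above all contralateral ones numbered 4 in CTL (Il11, Osmr, Stat3 and Socs3) and 5 in BLZ945 mice (also Lif), against 2.45% and 4.2% of all genes. Nothing is read from these shares, and the place of Osmr among them was fixed by how the pathway was chosen. The median log2 fold change of the other 9 members was 2.01 and 2.68, beside -0.01 and -0.0032 over all genes tested. Because the hemispheres of a mouse are paired, the model was fitted again with animals entered as a replicate block. Osmr left aside, Stat3 and Socs3 stayed called in CTL mice, and Stat3, Socs3, Lif and Il11 in BLZ945 mice. Among all genes, 0.975% passed in CTL and 2.18% in BLZ945 mice under this model. With the block, Osm, Lif and Il11 were also called in CTL (edgeR adjusted p = 0.045, 0.0096 and 0.011) and Il6 in BLZ945 mice (0.016). Averaged over both treatments, a contrast added after the values had been seen, all members but Il6ra, Il6st and Lifr were called, Osmr left aside (2.01% of all genes).

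The calls depended on which hemisphere of A3 was taken as the stroke side. Without A3, Stat3 and Socs3 were still called higher in CTL mice, with log2 fold changes of 0.68 and 3.01, and that of Osmr was 2.27. With the A3 hemispheres swapped to match the column names they were 0.35 and 1.17, and 1.07 for Osmr, no member was called in CTL mice or in BLZ945 mice, and 6 genes in all were called in BLZ945 mice. At unadjusted p under 0.05 the edgeR fit on the sample labels found 7 members in CTL and 8 in BLZ945 mice. The same cut took in 1182 and 2057 of the 18968 genes tested. DESeq2 called 5 members in CTL mice, a count given without its share of all genes. Osmr is counted in each, and its rise was known when the pathway was chosen, so nothing is read from these counts.

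**Figure D2:**
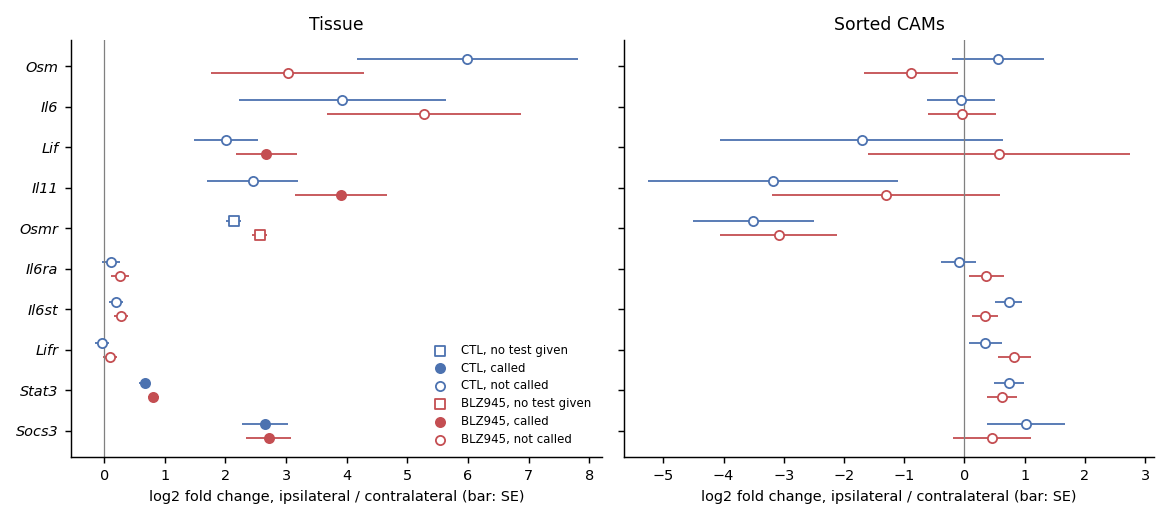
Log2 fold change of each gene, ipsilateral over contralateral, in tissue (left) and sorted CAMs (right); bars are SEs, filled circles were called by edgeR, open circles were not, and the squares of Osmr in tissue carry no test. In tissue Stat3 and Socs3 are filled in both treatments, and in CAMs no symbol is filled and Osmr lies near -3.

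Of 25 STAT3 target genes listed, 9 were called higher and 0 lower in CTL stroke tissue, and 13 higher and 0 lower in BLZ945 stroke tissue, where 0.443% and 1.16% of all genes were called. Their median log2 fold change was 1.22 and 1.23, beside -0.01 and -0.0032 over all genes. The list was chosen with earlier results of these data known and is not independent evidence of a direction. The 5 with the smallest p are named here. Serpina3n, a serine protease inhibitor of reactive astrocytes, went from 15.7 to 37.7 CPM contralaterally to 60.8 to 120 CPM ipsilaterally in CTL mice (1.89 ± 0.26 SE, edgeR adjusted p = 0.0013) and from 22.4 to 27.2 to 91.6 to 197 CPM in BLZ945 mice (2.44 ± 0.26, adjusted p = 7.8e-05). Bcl3, an atypical IkB protein, rose by 2.10 ± 0.32 and 3.03 ± 0.33, and Timp1, an inhibitor of metalloproteinases, by 3.23 ± 0.48 and 3.97 ± 0.47, on the log2 scale in CTL and BLZ945 mice. Gfap, the astrocyte filament, was 102 to 303 CPM contralaterally and 428 to 744 CPM ipsilaterally in CTL mice and 190 to 299 and 797 to 1062 CPM in BLZ945 mice. Cd14, a lipopolysaccharide co-receptor of myeloid cells, rose by 2.83 ± 0.45 and 2.98 ± 0.45. These genes answer to several pathways, and the list is no measure of STAT3 activity. The 6 neutrophil markers (S100a8, S100a9, Ly6g and others) summed to 0.547 to 4.53 CPM in CTL and 0.802 to 3.78 CPM in BLZ945 stroke tissue. Their sum was at most 1.12 CPM contralaterally, with Ly6g and Cxcr2 at 0 in all contralateral libraries. Ly6g was also at 0 in all CTL stroke libraries. Of the 6 markers 3 had enough counts to be tested, and 0 were called between hemispheres in either treatment. The part of neutrophils in these values was not tested.

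The rest of the pathway stayed mostly uncalled in tissue. Of 6 other gp130 ligands and subunits, 0 passed in CTL and 1 passed in BLZ945 mice, Clcf1, a ligand of the CNTF receptor, at 0.523 to 1.07 CPM contralaterally and 1.5 to 6.52 CPM ipsilaterally (log2 fold change 2.41 ± 0.46, edgeR adjusted p = 0.01). Of 10 negative regulators, no gene passed in CTL and 1 did in BLZ945 mice, Ptpn6, the phosphatase SHP-1 of blood-derived cells and microglia (3.43 to 4.47 against 8.12 to 9.16 CPM, 1.13 ± 0.19, adjusted p = 0.0036). None of 4 other receptors, 7 kinases and adaptors (Jak1, Jak2, Tyk2 and others) and 6 other STAT genes was called in either treatment, with medians between -0.08 and 0.56.

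**Figure D3:**
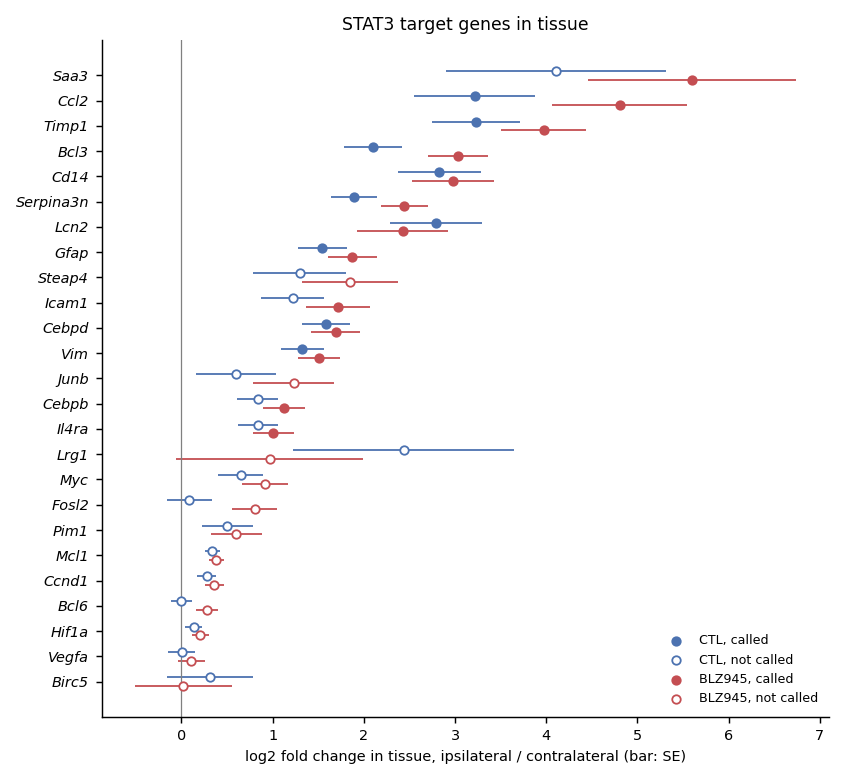
Log2 fold change of the 25 STAT3 target genes in tissue, ipsilateral over contralateral, in CTL (blue) and BLZ945 (red) mice, ordered by the BLZ945 value; bars are SEs and filled symbols were called by edgeR. All 25 values are above 0 in BLZ945 mice and 24 of 25 in CTL mice, and 13 and 9 of them are filled.

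Whether repopulation altered these levels was read from BLZ945 against CTL mice. In the stroke hemisphere, Osmr was 30.8 to 36.6 CPM in BLZ945 and 21.4 to 27.4 CPM in CTL mice, without overlap, a difference of 0.47 ± 0.12 on the log2 scale (edgeR adjusted p = 0.96, and 0.26 with DESeq2). Groups that did not overlap in this direction were found for 1.15% of all genes, and among members for Osmr alone. Lif was higher in BLZ945 mice by 1.12 ± 0.45 (edgeR adjusted p = 0.96) and Il11 by 1.27 ± 0.61 (adjusted p = 0.96), with overlapping libraries. No member and 0% of all genes passed the threshold in this comparison, in the contralateral comparison (0%) or in the difference between the stroke responses (0%). At unadjusted p under 0.05 by edgeR there were 2 members in the stroke hemisphere, 0 in the contralateral one and 1 in the difference of responses, Osmr, at 0.42 ± 0.18 (adjusted p = 1). That cut took in 858, 616 and 386 of the 18968 genes tested in these comparisons. DESeq2 called 0 members in each. Without A3 the Osmr difference of responses was 0.29, and it no longer passed unadjusted. The contralateral levels of Osmr differed by 0.04 ± 0.14 on the log2 scale, with bounds at 2 SE of -0.23 and 0.32. For Socs3 and Stat3 the differences of responses were 0.06 ± 0.54 and 0.14 ± 0.12, and those for Osm and Il6 had SEs of 2.30 and 3.96, too wide to read.

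The genes whose tissue pattern was most like that of Osmr, by Pearson correlation of log2 CPM over the 16 libraries, were Hmox1 (r = 0.983), Ptx3 (0.978), Plek (0.974), Mmp12 (0.971) and Tagln2 (0.969). These libraries share hemisphere and animal. For Osm, whose reads were few, the nearest genes reached r = 0.844 (Rasip1), 0.842 (Riok2), 0.816 (Mrpl20), 0.812 (Gclm) and 0.80 (Hspa1a), which is a weak basis for likeness.

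Levels in sorted CAMs are only set side by side with those in tissue, since the tables were normalised separately. Osm, at most 2.2 CPM in tissue, was 15.6 to 243 CPM in CAMs. In contralateral CAMs of CTL mice, per kilobase of exon, Socs3 stood at 51.8 ± 38.3, Osm at 27.8 ± 19.1, Stat3 at 23.3 ± 5.22, Il6st at 13.4 ± 2.74, Il6ra at 12.9 ± 3.29, Lifr at 12.3 ± 3.75, Il6 at 4.56 ± 1.91 and Osmr at 2.46 ± 1.03 CPM per kb (SD, n = 4). Il6st, Il6ra and Lifr were thus level within their spread, unlike in tissue. Il11 (1.05 ± 1.51) and Lif (0.415 ± 0.501) were the lowest, and each was at 0 in several CAM libraries.

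Osmr was lower in every ipsilateral than in every contralateral CAM library, but the difference was not called in either treatment. In CTL mice it was 15.3 in A2, 33.8 in A3, 44.7 in A4 and 25.6 CPM in B1 contralaterally, and 4.77 in A2, 1.17 in A4 and 1.93 CPM in B1 ipsilaterally. In BLZ945 mice it was 52.9 in C2, 27.5 in C3, 18.2 in C4 and 40.7 CPM in D1 contralaterally, and 3.17 in C3, 9.16 in C4 and 0 in D1 ipsilaterally. The log2 fold changes were -3.50 ± 1.00 (edgeR adjusted p = 0.076) and -3.09 ± 0.97 (adjusted p = 0.077). Members whose ipsilateral CAM libraries lay below all contralateral ones numbered 1 in each treatment, Osmr, against 10.2% and 12.4% of all genes, a share of the 10 members near that background. Averaged over both treatments, the contrast added after the values had been seen, Osmr was called lower (-3.30 ± 0.70, adjusted p = 0.0053), where 15% of all genes were called.

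Markers of several other cell types differed between the hemispheres alongside Osmr in these libraries. The 5 endothelial markers (Cldn5, Pecam1, Flt1, Ly6c1 and Cdh5) summed to 641 to 2107 CPM in contralateral and 57.8 to 169 CPM in ipsilateral CAM libraries of CTL mice, and to 1003 to 2001 and 35 to 65.4 CPM in those of BLZ945 mice. All 5 were called lower ipsilaterally in both treatments, and none was at 0 throughout a group. The astrocyte, oligodendrocyte, choroid plexus and red blood cell markers also had lower medians ipsilaterally. Over the 14 libraries log2(Osmr CPM + 1) and log2(summed endothelial CPM + 1) had a Pearson r of 0.84, within the 8 contralateral libraries it was 0.16, and within the 6 ipsilateral ones -0.19, where libraries share hemisphere and sort. Over the 14, r was 0.73 for the oligodendrocyte, 0.73 for the red blood cell and 0.61 for the astrocyte sum. Within the contralateral and the ipsilateral libraries these were 0.31 and -0.45, -0.39 and 0.70, and 0.09 and 0.26. Over the 14, r was 0.46 for the choroid plexus, 0.43 for the fibroblast and mural and 0.36 for the neuron sum. It was 0.18 for the T and NK cell, 0.13 for the neutrophil, 0.08 for the monocyte and -0.35 for the microglia sum. The 7 border macrophage markers went the other way, at 1542 to 5717 CPM contralaterally and 4525 to 9175 CPM ipsilaterally, with 0 of 7 called in CTL and 3 of 7 called higher in BLZ945 mice, and their sum had an r of -0.75 with Osmr over the 14 libraries. Microglia markers also had a higher median sum ipsilaterally, 16604 against 11370 CPM over both treatments. Fibroblast and mural markers had a lower median ipsilaterally in CTL mice (42.4 against 202 CPM) but not in BLZ945 mice (419 against 350 CPM). The part of all these cells in the levels of Osmr, Stat3, Il6st and Lifr in CAMs was not tested.

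**Figure D4:**
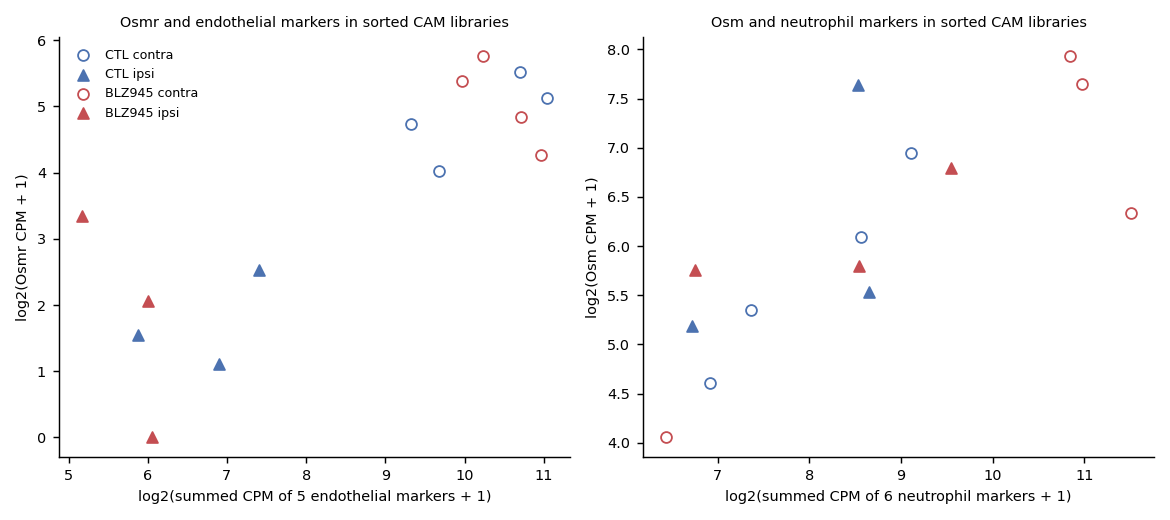
Left, Osmr against the sum of 5 endothelial markers, and right, Osm against the sum of 6 neutrophil markers, both as log2(CPM + 1) in the 14 sorted CAM libraries; open circles are contralateral, filled triangles ipsilateral, blue CTL and red BLZ945. On the left the hemispheres form separate clouds, the contralateral one high on both axes, and on the right the libraries of both hemispheres mix.

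Osm in CAMs overlapped between hemispheres and between treatments. In CTL mice it was 67.4, 39.8, 23.4 and 122 CPM contralaterally in A2, A3, A4 and B1 and 35.5, 45.4 and 198 CPM ipsilaterally in A2, A4 and B1. In BLZ945 mice it was 243, 15.6, 79.9 and 199 CPM contralaterally in C2, C3, C4 and D1 and 52.9, 54.6 and 110 CPM ipsilaterally in C3, C4 and D1. B1 was the highest CTL mouse in both hemispheres, C2 and D1 were the highest BLZ945 mice, and the groups overlapped (log2 fold change 0.56 ± 0.76 in CTL and -0.89 ± 0.78 in BLZ945 mice, edgeR adjusted p = 0.75 and 0.54). The 6 neutrophil markers, of cells known to make Osm, summed to 1837, 85.6, 2913 and 2013 CPM in the contralateral libraries of C2, C3, C4 and D1 and to between 104 and 747 CPM in all others. Over the 14 libraries Osm and that sum had a Pearson r of 0.78 on the log2 scale, 0.87 within the contralateral and 0.57 within the ipsilateral ones. In the same order r was 0.58, 0.71 and -0.20 for the monocyte sum and 0.17, 0.12 and 0.72 for the border macrophage sum. The other marker sums had an r of -0.46 (microglia) to 0.14 (T and NK cells) over the 14. The part of any of these cells in the Osm level was not tested, although the gate was negative for Ly6G and Ly6C.

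Il6, Lif and Il11 gave no ordered difference in CAMs. Il6 was 4.94 to 16.5 CPM contralaterally and 5.77 to 13.9 CPM ipsilaterally over both treatments (log2 fold changes -0.06 ± 0.57 and -0.04 ± 0.57). Lif ranged from 0 to 9.34 CPM contralaterally, and its only high ipsilateral library was D1 at 16.6 CPM. Il11 ranged from 0 to 6.77 CPM contralaterally and from 0 to 1.51 CPM ipsilaterally. These values overlapped and were not called.

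For the receptors other than Osmr, the libraries separated by hemisphere in 1 treatment at most. Il6st was 105, 149, 169 and 171 CPM contralaterally in CTL mice A2, A3, A4 and B1 and 304, 196 and 240 CPM ipsilaterally in A2, A4 and B1, without overlap (0.73 ± 0.22, edgeR adjusted p = 0.087). In BLZ945 mice it was 120 to 160 and 146 to 220 CPM (0.35 ± 0.22, adjusted p = 0.36). Lifr was 89.5, 156, 87.8 and 132 CPM contralaterally in C2, C3, C4 and D1 and 184, 180 and 256 CPM ipsilaterally in C3, C4 and D1, again without overlap (0.83 ± 0.27, edgeR adjusted p = 0.091), and 94.1 to 174 and 127 to 198 CPM in CTL mice. Il6ra was 42.3 to 149 CPM contralaterally and 86.4 to 117 CPM ipsilaterally over both treatments, with no order. None of the 3 was called.

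Stat3 was the only member other than Osmr whose CAM groups did not overlap in both treatments. It was 198, 268, 165 and 259 CPM contralaterally and 269, 310 and 536 CPM ipsilaterally in CTL mice (A2, A3, A4 and B1, with A3 missing ipsilaterally), where 269 in A2 and 268 in A3 nearly touch. In BLZ945 mice it was 235, 200, 187 and 284 CPM contralaterally in C2, C3, C4 and D1 and 306, 327 and 416 CPM ipsilaterally in C3, C4 and D1. The log2 fold changes of 0.74 ± 0.25 and 0.62 ± 0.25 were not called (edgeR adjusted p = 0.13 and 0.16). Averaged over both treatments Stat3 was called higher (0.68 ± 0.18, adjusted p = 0.018), but not without B1 (adjusted p = 0.052) or without C4 (0.053), and with all 16 CAM libraries the value was 0.35 (adjusted p = 0.81). Socs3 was 56.4 to 309 CPM contralaterally and 102 to 618 CPM ipsilaterally in CTL mice and 80 to 417 and 175 to 461 CPM in BLZ945 mice, highest in B1 and D1 in both hemispheres. Its averaged change of 0.74 ± 0.46 was not called (adjusted p = 0.29), and with the replicate block for the mouse it was (0.78 ± 0.16, adjusted p = 0.013).

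**Figure D5:**
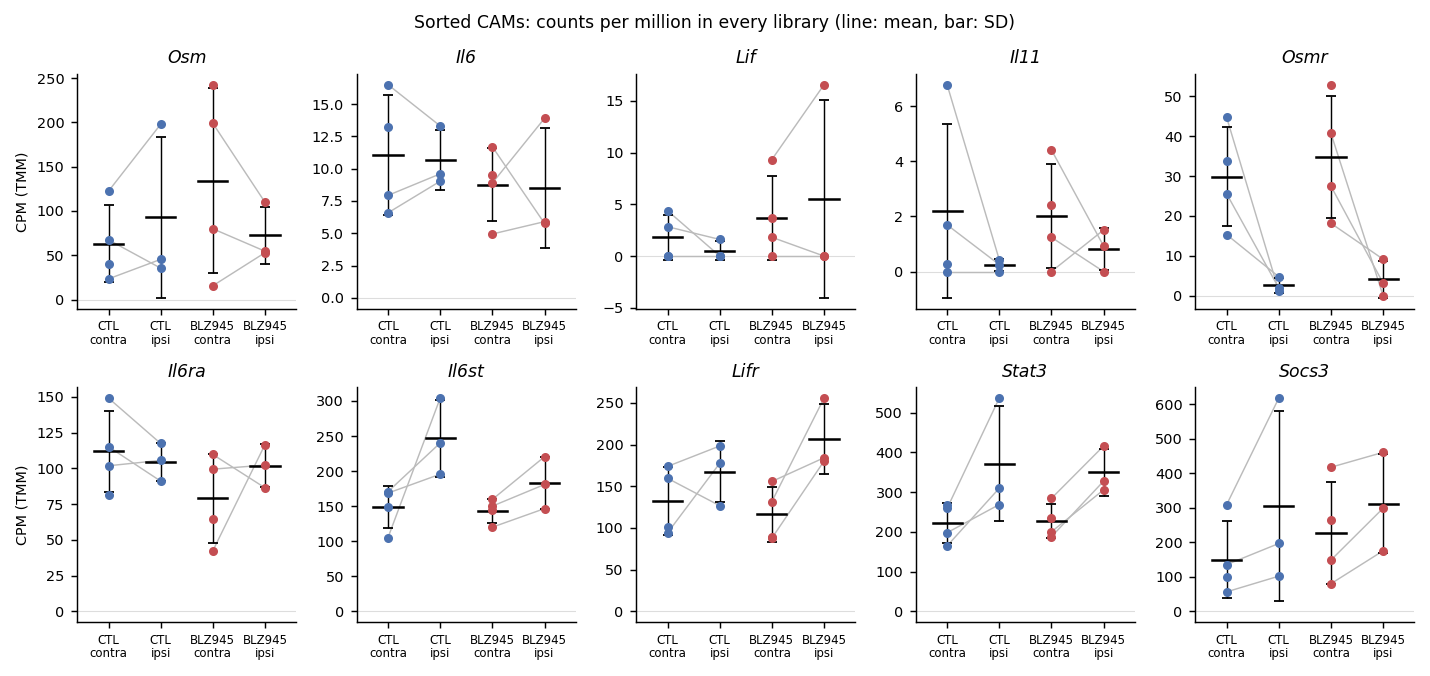
CPM (TMM-scaled, linear axes that begin near 0) of the 10 genes in the 14 sorted CAM libraries, by treatment and hemisphere; points are libraries, grey lines join the hemispheres of a mouse, black lines are means and bars SDs. Osmr is at 15.3 to 52.9 CPM in all contralateral and 0 to 9.16 CPM in all ipsilateral libraries, whereas Osm and Socs3 spread widely within each group.

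No member was called between hemispheres in CAMs of either treatment, where 2.79% of the 18297 genes tested passed in CTL and 5.61% in BLZ945 mice. By edgeR at unadjusted p under 0.05 there were 3 members in each treatment (Osmr, Il6st and Stat3 in CTL, Osmr, Lifr and Stat3 in BLZ945 mice). The same cut took in 3346 and 4088 of the 18297 genes tested, and nothing is read from these counts. DESeq2 called 2 members in each treatment, a count given without its share of all genes. Members whose ipsilateral libraries lay above all contralateral ones numbered 2 in each treatment, Il6st and Stat3 in CTL and Lifr and Stat3 in BLZ945 mice, against 5.7% and 7.44% of all genes. The median log2 fold change was 0.14 and 0.36 over the members and -0.11 and -0.15 over all genes tested. Of the 25 STAT3 target genes, 0 were called higher and 1 lower in CTL CAMs (Vim), and 1 was called higher (Ccnd1) and 4 lower (Serpina3n, Lcn2, Gfap and Vim) in BLZ945 CAMs. Among the other lists, Jak2, a kinase of these receptors, was called higher in CTL mice (36.7 to 61.7 against 91.4 to 144 CPM), and Ctf1, another family ligand, was called lower in BLZ945 mice (0 to 15.7 CPM contralaterally against 0 to 0.103 CPM ipsilaterally). These genes in CAMs were named after their values had been seen.

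Between treatments, no member passed the test in CAMs. The call rate was 0% of all genes in ipsilateral CAMs, in contralateral CAMs and for the difference between the stroke responses, no member had an unadjusted edgeR p under 0.05 in any of these, and DESeq2 called 0 members. At that unadjusted cut there were 1034, 1133 and 912 of the 18297 genes tested. Osmr differed between BLZ945 and CTL mice by 0.64 ± 0.96 ipsilaterally and 0.22 ± 0.79 contralaterally on the log2 scale (SE), with bounds at 2 SE of -1.29 to 2.57 and -1.36 to 1.81. For Stat3 the differences were -0.09 ± 0.27 and 0.03 ± 0.24, and for Il6st -0.43 ± 0.23 and -0.05 ± 0.20.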

How the data were processed

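RNA was sequenced from brain tissue slices of either hemisphere (16 libraries) and from sorted CAMs (16 libraries, 14 used). Per the labels and the study's methods, the authors demultiplexed with bcl2fastq 2.20, aligned with STAR 2.7.11a, counted reads per gene with featureCounts 2.0.8 and used DESeq2 1.46.0; the genome build of the tables was not settled, so no gene coordinates are given from them. The deposited values are raw counts per gene. Here genes whose counts summed to 8 or more in tissue (18968 genes) or 7 or more in CAMs (18297 genes) were tested with edgeR 4.0.16 (quasi-likelihood F test, TMM, R 4.3.3, 4 group means per table), and calls needed a Benjamini-Hochberg adjusted p under 0.05 and an absolute log2 fold change above 0.59. Levels per kilobase used the union of a gene's exons in a GENCODE mouse annotation, which may differ from the one the authors counted on. The script was tested on simulated counts. Named genes were the 10 members, up to 5 called genes of each pathway list by smallest p in tissue, and the 5 genes most like Osmr and Osm with a mean CPM of at least 1. The members and lists were chosen with earlier results of these data known. No 2 replicates agreed within sampling noise (chi-square per degree of freedom at least 4.49). The hemispheres of a mouse are paired by design, and their deviations from the group means correlated at 0.214 to 0.645 in tissue and 0.0451 to 0.191 in CAMs. Alternatives were DESeq2 1.42.0, its size factors, other filters and thresholds, a replicate block, the exchange of A3 and leaving out each mouse. Replicates are named for separate mice, 3 or 4 a group, although the methods mention pooled cells of 2 BLZ945 mice per replicate without making clear for which sorts. A further listed gene called in CAMs is not reported here.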

Additional observations from a re-analysis of the deposited data

Results flagged for a closer look

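Of 59 groups of 4 libraries examined for a library far from the others, 2 held one. Chance alone gives about 1 in 20 for continuous values, a rate that does not cover these 2. A group with 1 read and otherwise 0 is always flagged by the rule. Both concern Il6 in contralateral tissue and rest on 1 count: mouse A3 stood at 0.085 CPM among CTL mice and mouse C2 at 0.107 CPM among BLZ945 mice, with the other libraries at 0.

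The 2 degraded CAM libraries, left out of the comparisons, held counts of some members above 3. In the library of C2 there were 10 counts of Osm (181 CPM of its total), 4 of Il6ra (72.5 CPM), 16 of Lifr (290 CPM) and 5 of Stat3 (90.7 CPM). In the library of A3 there were 8 counts of Il6st (148 CPM) and 4 of Stat3 (74 CPM). Osmr had 0 counts in both.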

How the results depend on the processing

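The number of members called higher in CTL stroke tissue, Osmr counted here and in the other tissue counts, was 3, and it was 5 with DESeq2, 6 with the replicate block, 0 with the hemispheres of A3 exchanged and 0 with that exchange and the replicate block together (this alternative, and the contrast averaged over treatments, were chosen after seeing the data), and 3 without any 1 mouse. In BLZ945 stroke tissue it was 5, with 0 under the exchange, and 3 to 5 without 1 mouse, the lowest without C2 and without D1. Averaged over both treatments it was 7 in tissue, with 0 under the exchange, 4 under the exchange with the block, and 5 to 7 without 1 mouse. In CAMs the count of 0 became 2 with DESeq2 and 1 with no filter in each treatment, and without 1 mouse it was 0 to 1 in CTL and 0 in BLZ945 mice. Averaged over both treatments it was 2 in CAMs, 1 at a log2 threshold of 1, 1 with all 16 libraries, and 1 to 3 without 1 mouse. The differences between treatments gave 0 members under every alternative run. The tissue counts include Osmr, whose rise led to the choice of the pathway, so its place in them is no test result. These counts stand without their shares of all genes and describe the settings alone.

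Of 789 values of single members under an alternative, 735 kept their direction and side of the threshold, 17 became called, 20 were no longer called and 17 changed sign. In tissue these were Lifr in CTL mice (-0.03, but 0.128 with A3 exchanged, 0.125 with the replicate block as well, and -0.091 to 0.0644 without 1 mouse, above 0 without A3) and, between treatments in the stroke hemisphere, Osm (-0.652 to 1.39 without 1 mouse, below 0 without A3 and D1) and Il6st (-0.0174 to 0.153, below 0 without C2). In CTL CAMs they were Il6 (0.14 with the block, 0.0453 with all 16 libraries and -0.12 to 0.0498 without 1 mouse, above 0 without A3 and B1), Il6ra (-0.214 to 0.0208, above 0 without A2) and Osm (-0.105 to 0.985, below 0 without B1). In BLZ945 CAMs they were Osm (0.0592 with the block), Lif (-1.57 with the block and -7.08 to 0.933 without 1 mouse, below 0 without D1) and Il6 (-0.577 to 0.348, above 0 without C2 and D1). The cause was not tested. Depth limits Osm and Il6 in tissue, where 3 counts stand for 0.234 to 0.321 CPM.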
